A study of Caenorhabditis elegans with 6 samples.

Results

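The 26S proteasome of Caenorhabditis elegans is described here through 32 genes, taken by name from the annotation: the 7 alpha (pas) and 7 beta (pbs) genes of the 20S core particle, and the 6 ATPase (rpt) and 12 non-ATPase (rpn) genes of the 19S regulatory particle. They are 32 of the 19999 genes in the tables. They were taken by name and not by their values, though earlier results of these data were known by then. The proteasome degrades proteins that carry ubiquitin chains. The regulatory particle binds, deubiquitinates and unfolds the substrate, and the stacked rings of the core particle cleave it. In worms and mammals the subunit genes are controlled together by a transcription factor of the NRF family, SKN-1A in worms, which is made active by the peptide N-glycanase PNG-1 and the aspartic protease DDI-1.

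RNA was sequenced from 3 samples of ddi-1(icb156) mutants and 3 of wild type, which their labels call biological replicates. All were whole animals, synchronized by bleaching, fed E. coli OP50 at 20°C and collected at L4, the last larval stage. The icb156 allele is a non-synonymous change recovered from a chemical mutagenesis screen and is listed in a single strain, whose transgene holds a col-12p::mCherry marker beside the chil-27p::GFP reporter. For the wild-type samples the presence of this transgene is not stated, so the effects of the mutation, of the transgene and of any other change left by the mutagenesis cannot be told apart.

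Estimated counts came to between 28962104 and 36258118 in the mutant libraries and between 40554395 and 47142002 in the wild-type libraries. CPM are counts scaled to 1000000 in each library, after TMM correction of the library sizes for composition. A log2 fold change is that of ddi-1(icb156) over wild type, and a gene passed at p below 0.01 and adjusted p below 0.1 in edgeR's quasi-likelihood test with Benjamini-Hochberg adjustment over 15409 genes tested. In the first principal component of all genes, wild-type replicate 2 lay at -17.2, between the mutants at 50.6 to 62.8 and wild-type replicates 1 and 3 at -77.4 and -74.9. ddi-1 itself had 35.0, 35.3 and 35.5 CPM in mutant replicates 1 to 3, against 48.5, 50.3 and 48.6 CPM in wild type, a log2 fold change of -0.48 ± 0.05 (standard error, SE, adjusted p = 0.00308). Because the allele changes the protein, this level does not check the labels.

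Every one of the 32 subunit genes was tested, and all 32 were lower in ddi-1(icb156) than in wild type. Over all genes tested 13.4% were lower and 9.96% higher by the same rule, and 17.8% were lower among the 1064 genes with a mean of 114 to 369 CPM, the range of the subunits. The median log2 fold change of the subunits was -0.62, with quartiles of -0.68 and -0.59, beside a median of 0.01 and quartiles of -0.26 and 0.35 over all genes. The mutant mean was between 56.1% and 70.1% of the wild-type mean, with a median of 65.0%. Genes lower by the rule had a median log2 fold change of -1.51, larger in size than that of any subunit. In the RNA of whole animals, less RNA per cell and fewer cells of a type cannot be told apart.

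The changes were close to each other. For 28 of the 32 genes the log2 fold change lay within 0.1 of the median, and the standard errors were 0.05 to 0.09. The highest mutant value lay below the lowest wild-type value for all 32 genes, as it did for 23.5% of all genes tested and for 36.9% of those in the CPM range of the subunits. Each gene had between 26414 and 85559 counts over the 6 libraries. The coefficient of variation over replicates had a median of 3.90% in the mutants and 2.04% in wild type, and the highest were 10.8% for pbs-1 in the mutants and 3.58% for rpn-10 in wild type. Adjusted p ran from 9.03e-04 for rpn-12 to 0.00881 for pbs-1.

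**Figure D1:**
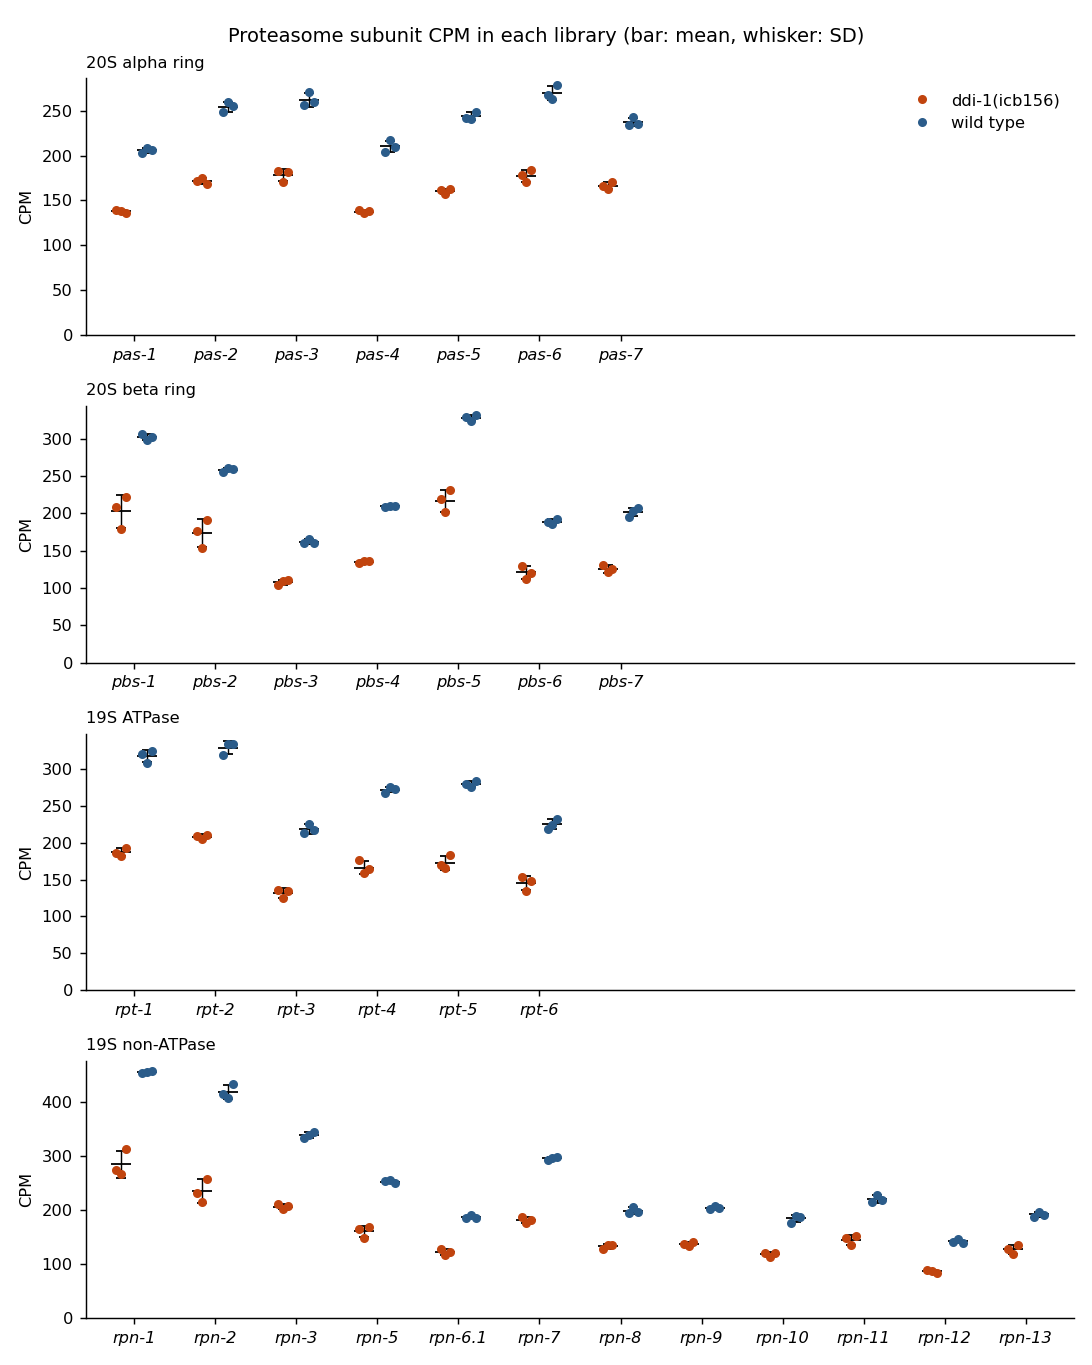
CPM of each proteasome subunit gene (y axis, starting at 0) in the 3 ddi-1(icb156) libraries (left of each pair) and the 3 wild-type libraries (right), in a panel for each subcomplex. Points are libraries, bars are means and whiskers SD. For all 32 genes the mutant points lie below the wild-type points, against 23.5% of all genes tested.

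The alpha subunits form the outer rings of the core particle, whose N-termini close the entry to the chamber. All 7 alpha genes fell, at a median of -0.58 on the log2 scale. pas-7, the ortholog of human PSMA3, had the smallest change of the 32 genes in 17 of the 18 settings of the processing, and without mutant replicate 2 it was pbs-1. It gave 166.5, 162.7 and 170.1 CPM in the mutants, against 233.8, 242.7 and 235.4 CPM in wild type, a log2 fold change of -0.51 ± 0.05 (SE, adjusted p = 0.00235). The groups lay 63.7 CPM apart, while the exons of pas-7 overlap those of lact-2 on the opposite strand, so its counts are uncertain.

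pas-3, the ortholog of PSMA4, came next at 183, 171 and 181 CPM in the mutants, against 256, 271 and 259 CPM in wild type. Its log2 fold change of -0.56 (SE 0.06, adjusted p = 0.00250) did not differ from that of pas-7 beyond their standard errors. pas-2, the ortholog of PSMA2, had 172 ± 3.62 CPM in the mutants and 254 ± 5.26 CPM in wild type (SD, n = 3 each), and pas-1, the ortholog of PSMA6, had 138 ± 1.95 and 206 ± 2.65 CPM (SD, n = 3 each). These are mutant levels of 67.5% and 67.0% of wild type. At the other end, pas-4, the ortholog of PSMA7, had 139, 136 and 138 CPM in the mutants, against 204, 217 and 209 CPM in wild type, a log2 fold change of -0.61 ± 0.05 (SE, adjusted p = 0.00146). pas-5 (PSMA5) and pas-6 (PSMA1) had log2 fold changes of -0.61 and -0.60, and so the 7 genes of the ring lay between -0.61 and -0.51.

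The beta subunits form the inner rings, and 3 of them carry the active sites: pbs-1 the caspase-like, pbs-2 the trypsin-like and pbs-5 the chymotrypsin-like site, by orthology with yeast and mammals. All 7 beta genes fell, and their median was -0.60. Of these, pbs-1 and pbs-2 varied most between the mutant replicates. pbs-1 gave 208, 179 and 221 CPM in the mutants, against 306, 298 and 302 CPM in wild type, a log2 fold change of -0.58 ± 0.09 (SE, adjusted p = 0.00881). pbs-2 gave 176, 154 and 191 CPM in the mutants, against 256, 260 and 260 CPM in wild type, a log2 fold change of -0.57 ± 0.09 (SE, adjusted p = 0.00817). Mutant replicate 2 was the lowest library for both, and the groups were still 76.8 and 65.3 CPM apart.

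pbs-5, whose protein is the main target of the inhibitor bortezomib, gave 219, 201 and 231 CPM in the mutants, against 328, 324 and 332 CPM in wild type. Its log2 fold change was -0.60 (SE 0.07, adjusted p = 0.00321). The other 4 beta subunits have no active site of their own. Of these, pbs-3 had 108 ± 3.18 CPM in the mutants and 162 ± 3.45 CPM in wild type (SD, n = 3 each), and pbs-4 had 136 ± 2.01 and 210 ± 0.828 CPM (SD, n = 3 each). pbs-6 gave 129, 112 and 121 CPM in the mutants, against 188, 186 and 192 CPM in wild type. pbs-7, at 131, 121 and 125 CPM in the mutants, against 196, 203 and 207 CPM in wild type, had the lowest log2 fold change of the ring, -0.68 (SE 0.06, adjusted p = 0.00143). pbs-3 and pbs-4 overlap exons of ndx-3 and mrrf-1 on the opposite strand, and pbs-7 overlaps K07A12.5 on the same strand, which makes the counts of all 3 uncertain.

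The 6 ATPases form the ring at the base of the regulatory particle that unfolds substrates and feeds them into the core. All 6 fell. Their median of -0.70 was the lowest of the 4 subcomplexes, and all 6 lay below the median of the 32 subunits. rpt-1 gave 187, 182 and 193 CPM in the mutants, against 320, 307 and 324 CPM in wild type, a log2 fold change of -0.76 ± 0.06 (SE, adjusted p = 9.57e-04). Its mutant level was 59.1% of wild type, and the groups lay 114 CPM apart. rpt-3, whose promoter serves the study as a reporter of proteasome gene expression, gave 136, 125 and 135 CPM in the mutants, against 214, 225 and 217 CPM in wild type.

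For rpt-4 the values were 176, 158 and 164 CPM in the mutants, against 268, 275 and 272 CPM in wild type, a log2 fold change of -0.71 ± 0.06 (SE, adjusted p = 0.00148). rpt-5 had a log2 fold change of -0.70 ± 0.06 (SE, adjusted p = 0.00154) and rpt-2 one of -0.66 (SE 0.05, adjusted p = 0.00125). rpt-2 was the steadiest ATPase gene in the mutants, at 209, 205 and 210 CPM, against 319, 333 and 334 CPM in wild type. rpt-6 had the smallest change of the ring, at 153, 134 and 148 CPM in the mutants, against 219, 224 and 232 CPM in wild type, a log2 fold change of -0.63 ± 0.07 (SE, adjusted p = 0.00282). Exons of rpt-2, rpt-4 and rpt-6 overlap those of fos-1, rpoa-49 and glrx-5 on the opposite strand, and their counts are uncertain for that reason.

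The 12 non-ATPase genes all fell, and of the 4 subcomplexes theirs had the widest range around its median log2 fold change, which was -0.65. rpn-1 and rpn-2 encode the large scaffold proteins of the base. rpn-2 gave 231, 214 and 258 CPM in the mutants, against 415, 406 and 432 CPM in wild type, a log2 fold change of -0.83 ± 0.08 (SE, adjusted p = 0.00209). This was the lowest log2 fold change of the 32 genes, at 56.1% of the wild-type level, and the groups lay 148 CPM apart. The gene next in order, rpt-1, did not differ from it beyond their standard errors. rpn-1 gave 273, 266 and 313 CPM in the mutants, against 453, 454 and 456 CPM in wild type, a log2 fold change of -0.68 ± 0.08 (SE, adjusted p = 0.00319).

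rpn-10 and rpn-13 encode ubiquitin receptors of the regulatory particle. rpn-10 gave 121, 113 and 120 CPM in the mutants, against 176, 189 and 187 CPM in wild type, a log2 fold change of -0.64 ± 0.06 (SE, adjusted p = 0.00160). rpn-13 gave 126.9, 118.8 and 134.3 CPM in the mutants, against 187.3, 195.4 and 191.3 CPM in wild type, a log2 fold change of -0.60 ± 0.06 (SE, adjusted p = 0.00262). Both of these genes were thus close to the median of the 32 genes. rpn-11 encodes the metalloprotease that removes ubiquitin chains, and rpn-8 its partner. rpn-11 gave 148, 134 and 152 CPM in the mutants, against 215, 228 and 218 CPM in wild type, with a log2 fold change of -0.61 ± 0.07 (SE, adjusted p = 0.00301). For rpn-8 the log2 fold change was -0.58 (SE 0.06, adjusted p = 0.00205).

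Most other non-ATPase genes encode the PCI-domain proteins of the lid, rpn-3, rpn-5, rpn-6.1, rpn-7, rpn-9 and rpn-12. rpn-12 gave 88.2, 85.9 and 83.8 CPM in the mutants, against 141, 145 and 139 CPM in wild type, a log2 fold change of -0.72 (SE 0.05). rpn-3 gave 210, 201 and 207 CPM in the mutants, against 332, 338 and 344 CPM in wild type, with the same log2 fold change of -0.72 (SE 0.06, adjusted p = 0.00101). Of the lid genes, 3, rpn-3, rpn-7 and rpn-12, lay at -0.70 or below. rpn-9 was at the other end of the non-ATPase genes, at 137, 132 and 140 CPM in the mutants, against 201, 207 and 203 CPM in wild type, a log2 fold change of -0.58 ± 0.05 (SE, adjusted p = 0.00171). Between them, rpn-5 and rpn-6.1 had log2 fold changes of -0.65 and -0.61. Exons of rpn-7, rpn-10 and rpn-11 overlap those of nemt-1, B0205.12 and pqn-48 on the opposite strand. The 10 subunit genes with an exon overlap on either strand had a median of -0.64, and the 22 without one had a median of -0.61.

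**Figure D2:**
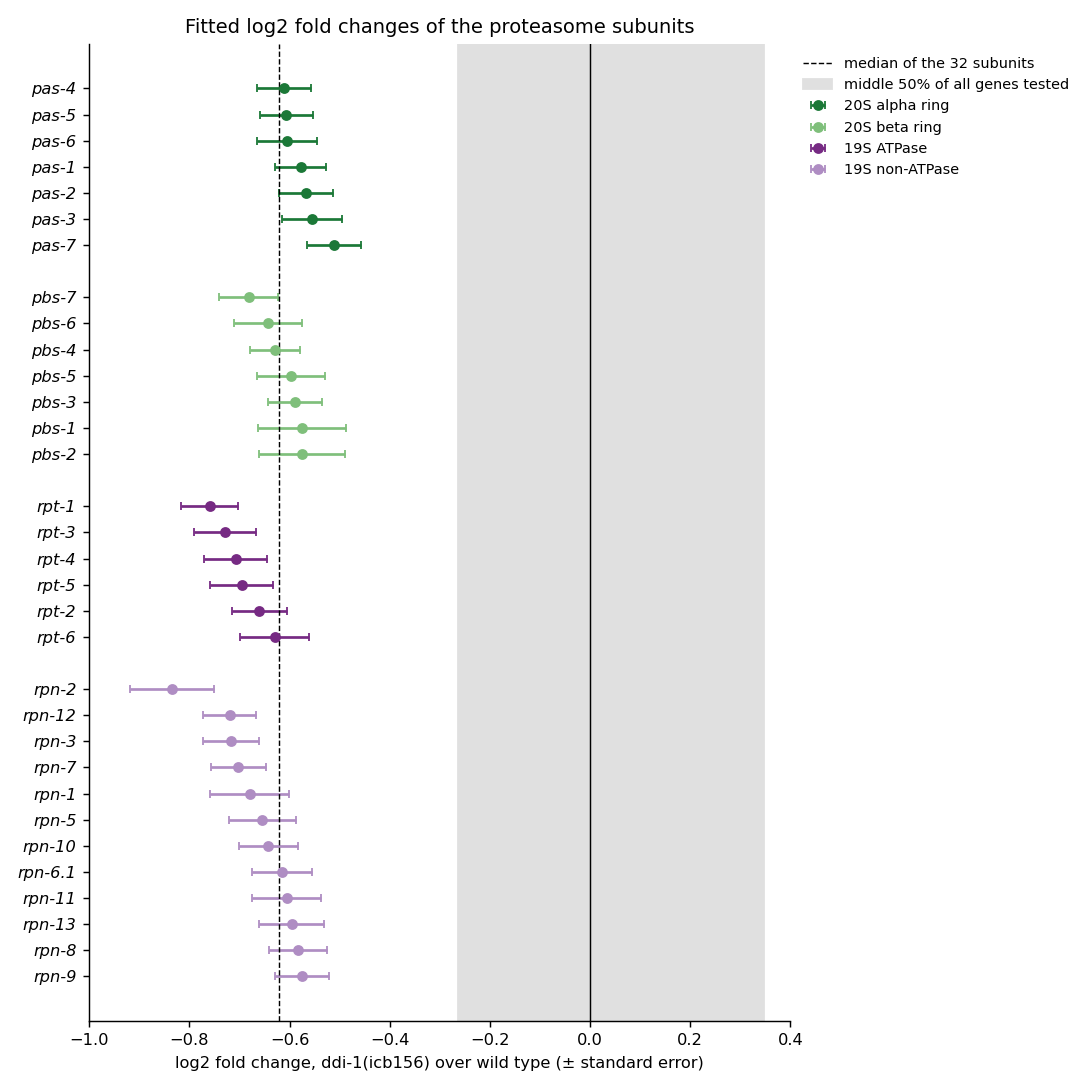
Fitted log2 fold changes of the 32 subunit genes (x axis, ddi-1(icb156) over wild type, with standard errors), grouped by subcomplex on the y axis. The dashed line marks their median of -0.62 and the grey band the middle 50% of all genes tested, from -0.26 to 0.35, and all 32 genes lie to the left of the band.

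The core and the regulatory particle were compared next, without a test, since the genes of a complex share their libraries and are not replicates. The 14 core genes had a median log2 fold change of -0.59 and the 18 regulatory genes one of -0.67. Of the 10 genes with the lowest log2 fold change, 4 were ATPases, 5 were non-ATPases, 1 was a beta gene and 0 were alpha genes. Of the 10 with the highest, 4 were alpha genes, 3 beta genes, 3 non-ATPases and 0 ATPases. The medians of both regulatory subcomplexes lay below those of both core rings in all 18 settings of the processing, and the ATPase median was the lowest in all 18.

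The ATPase genes also had the lowest median in each mutant library. Relative to the wild-type mean of log2 CPM, it was -0.67, -0.77 and -0.67 in mutant replicates 1 to 3. The non-ATPase genes lay at -0.63, -0.72 and -0.60, below the alpha genes at -0.57, -0.62 and -0.59 in each library. The beta genes, at -0.59, -0.74 and -0.56, changed place, lying below the non-ATPase genes in replicate 2 and above the alpha genes in replicate 3. In wild type the same medians lay between -0.03 and 0.03 in each library.

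Levels of different genes were set side by side as TPM, which divides the counts by transcript length before scaling each library to the same total as CPM. Core genes were the more abundant per length, at 142 to 267 TPM in the mutants and 208 to 389 TPM in wild type. The regulatory genes had 71.3 to 141 TPM in the mutants and 114 to 217 TPM in wild type. pbs-1 had the highest level in both groups, at 267 ± 17.6 TPM in the mutants and 389 ± 3.93 TPM in wild type (SD, n = 3 each). The order of the 32 genes was nearly the same in the mutants as in wild type, with 13 genes at the same rank and none shifted by more than 2 ranks. The lowest level in the mutants was that of rpn-2, at 71.3 ± 4.52 TPM, and the lowest in wild type that of rpn-6.1, at 114 ± 4.40 TPM (SD, n = 3 each). The ranges of these neighbours overlapped over the mutant libraries, at 68.5 to 76.5 TPM for rpn-2 and 74.8 to 78.2 TPM for rpn-6.1, and did not overlap in wild type, at 121.6 to 126.8 TPM and 111.2 to 119.1 TPM.

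Summed over genes, the core had 2581, 2649 and 2606 TPM in the mutants, against 3750, 3952 and 3832 TPM in wild type. The regulatory particle had 1875, 1909 and 1889 TPM in the mutants, against 2863, 3036 and 2932 TPM in wild type. The ratio of the core sum to the regulatory sum was therefore 1.38, 1.39 and 1.38 in mutant replicates 1 to 3, against 1.31, 1.30 and 1.31 in wild type. The ratio is independent of library scaling, and the groups did not overlap in it. The ratio of the median TPM of the core genes to that of the regulatory genes, which gives less weight to the most abundant genes, was 1.73, 1.71 and 1.84 in the mutants, against 1.74, 1.64 and 1.73 in wild type, and in this ratio the groups overlapped.

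**Figure D3:**
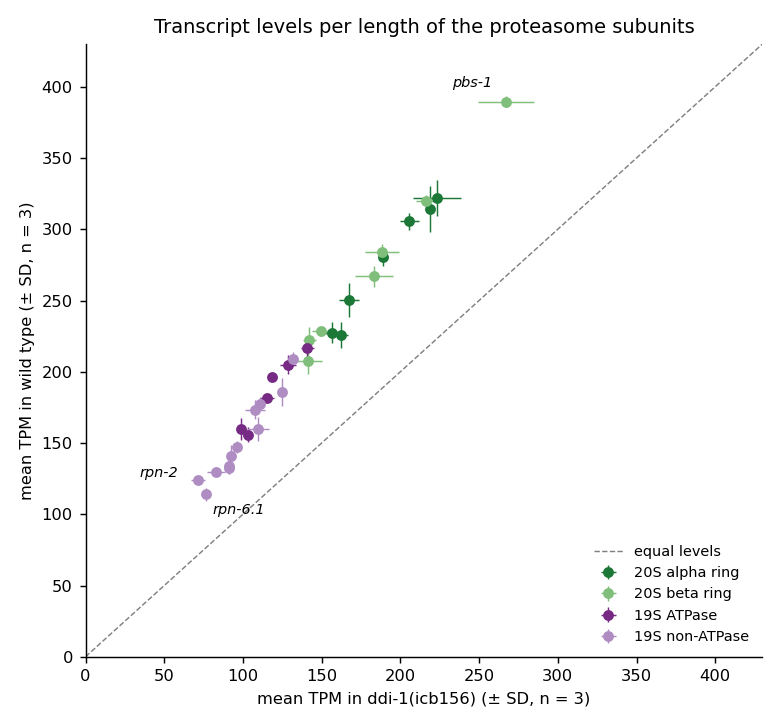
Mean TPM of each subunit gene in ddi-1(icb156) (x axis) and in wild type (y axis), with SD over 3 replicates, coloured by subcomplex. All 32 points lie above the line of equal levels, the core genes at 142 to 267 TPM in the mutants and the regulatory genes at 71.3 to 141 TPM.

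The regulatory genes are longer. The longest transcript of each gene had a median of 1520 bases (886 to 3228) for them, against 900 bases (808 to 1080) for the core genes. Among all genes tested the median log2 fold change also went down with length, at 0.06 up to 1000 bases, 0.02 up to 1500, 0.00 up to 2500 and -0.09 above that. The subunits in the same classes had medians of -0.61, -0.61, -0.67 and -0.76, from 11, 11, 8 and 2 genes. Length thus moved with the difference between core and regulatory genes, and its part in that difference was not tested.

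The 32 genes are spread over 5 chromosomes of WBcel235. Chromosome I holds 10, chromosomes II and III 7 each, chromosome IV 3 and chromosome V 5, with median log2 fold changes of -0.61, -0.61, -0.64, -0.68 and -0.60. The nearest neighbours, pbs-7 (I, 8695205 to 8696301) and pas-4 (I, 8727218 to 8728487), are 30916 bases apart. The fall was thus found on each chromosome that holds a subunit gene. rpn-2, with the lowest log2 fold change, lies on chromosome III from 6199184 to 6202594, rpt-1 on chromosome V from 11980534 to 11982397, and pas-7, with the highest, on chromosome II from 10098782 to 10099854.

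For 4 of the genes the transcripts encode more than 1 protein isoform, and the shares of the isoforms were compared without a test. The b isoform of rpn-6.1 made up 89.8 ± 1.65% of the TPM of the gene in the mutants and 88.8 ± 2.08% in wild type (SD, n = 3 each). The a isoform of rpn-13 made up 88.4 ± 1.67% and 87.2 ± 0.844% (SD, n = 3 each). For rpn-2 and rpt-4 the b isoform took 99.8% and 99.6% of the TPM in the mutants and 99.7% and 99.7% in wild type. The difference was smaller than the SD of either group for rpn-2, rpn-6.1 and rpt-4, and for rpn-13 smaller than the SD of the mutants but larger than that of wild type.

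Genes of other complexes were given as a comparison. The COP9 signalosome and the translation factor eIF3 are built from the same PCI and MPN domains as the lid of the proteasome. By edgeR's quasi-likelihood test 0 of the 6 COP9 signalosome genes and 0 of the 11 eIF3 genes passed, with medians of -0.06 and -0.02. Likewise 0 of the 8 genes of the chaperonin CCT, which folds actin and tubulin, passed, at a median of 0.09. Over all genes tested 13.4% were lower and 9.96% higher. At those shares, lists of 6 to 11 genes would hold few calls. In these 3 lists 0 genes had an unadjusted p below 0.05, and 0 passed by DESeq2's Wald test. With scaling by library size alone 1 CCT gene was higher. Of 78 cytosolic ribosomal protein genes, 0 were higher and 1, rpl-42, was lower, at a mean of 0.945 CPM in the mutants and 3.71 CPM in wild type, and the list had a median of 0.07. By edgeR's test 2 of the 78 had an unadjusted p below 0.05 and a higher level, and 2 had one and a lower level. By DESeq2's test 0 were higher and 2 lower, beside 18.4% lower over all genes.

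Genes for other proteins that are part of, bind or help the proteasome were measured as well. Of 7 such genes, 4 were lower, beside 13.4% of all genes tested. usp-14, which encodes the deubiquitinase that binds the regulatory particle, gave 151, 135 and 144 CPM in the mutants, against 213, 208 and 222 CPM in wild type, a log2 fold change of -0.58 ± 0.07 (SE, adjusted p = 0.00301). It passed in all 17 alternatives, and its change was within the range of the subunits. rpn-6.2, a paralog of rpn-6.1, gave 20.5, 17.8 and 23.3 CPM in the mutants, against 35.1, 25.1 and 35.8 CPM in wild type, a log2 fold change of -0.64 ± 0.17 (SE, adjusted p = 0.0387).

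The small subunit gene dss-1, at -0.23 (SE 0.05, adjusted p = 0.0302), and the deubiquitinase gene ubh-4, at -0.22 (SE 0.05, adjusted p = 0.0298), had smaller changes. dss-1 is not among the 32 subunit genes described above, and its change was outside their range. dss-1 gave 72.8, 68.7 and 68.8 CPM in the mutants, against 82.9, 82.4 and 81.0 CPM in wild type. ubh-4 gave 104.4, 101.5 and 101.9 CPM in the mutants, against 117.5, 123.2 and 118.2 CPM in wild type. rpn-6.2 passed in 9 of the 17 alternatives, and dss-1 and ubh-4 in 7 each, and their highest adjusted p among these were 0.138, 0.125 and 0.127. With the replicate number as a block dss-1 and ubh-4 did not pass (adjusted p = 0.0509 and 0.0605). The proteasome activator gene psme-3 (-0.17), aip-1 (-0.21) and the assembly chaperone gene psmd-9 (-0.04) did not pass, with adjusted p of 0.116, 0.104 and 0.842.

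Upstream of the proteasome, 8 of 12 genes for ubiquitin and for CDC-48, the segregase that extracts ubiquitinated proteins, were lower and 0 higher. The shares over all genes were 13.4% lower and 9.96% higher, and the list had a median of -0.46. Not lower by the rule were the ubiquitin genes ubq-1 (0.19) and ubq-2 (0.05), and also uba-1 (-0.13) and ubql-1 (-0.16). The smallest p-values were those of the CDC-48 cofactor genes npl-4.1, at -0.57 (SE 0.05, adjusted p = 0.00154), and ufd-3, at -0.66 (SE 0.07, adjusted p = 0.00208). Among 5 genes for SKN-1A and its processing, ddi-1 was joined by sel-11, a ubiquitin ligase of the endoplasmic reticulum, at -0.49 (SE 0.09, adjusted p = 0.0146) and its partner sel-1 at -0.25 (SE 0.06, adjusted p = 0.0283). sel-1 passed in 11 of the 17 alternatives, with adjusted p of up to 0.102. skn-1 and png-1 did not pass, at -0.03 and -0.01.

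**Figure D4:**
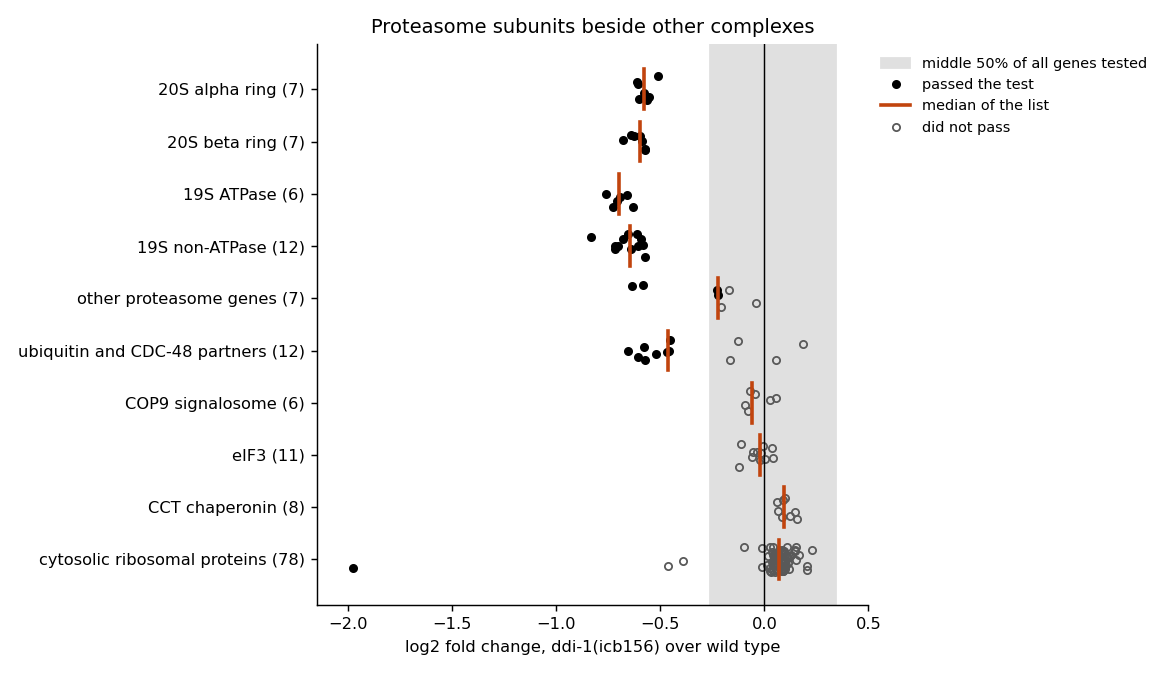
Log2 fold changes (x axis, ddi-1(icb156) over wild type) of the genes of the 4 proteasome subcomplexes and of 6 comparison lists (y axis, number of genes in brackets, jittered). Filled points passed the test, open points did not, and red bars are list medians. The subunits lie at -0.83 to -0.51, and the COP9 signalosome, eIF3 and CCT genes all lie within the grey band of the middle 50% of all genes.

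The summed CPM of markers of the germ line and of reproduction moved with the genotype. The part of these markers in the change of the subunits was not tested. The labels give no age within L4, and a difference in age between the groups was not tested. Of the genes tested, 2 of 12 germline, 9 of 10 oocyte and eggshell, 27 of 29 major sperm protein and 6 of 6 yolk genes were lower. The share lower over all genes was 13.4%, and the germline count lay near it. The 2 germline genes were gld-1 and him-3. These counts, other than that of yolk, changed when single libraries were left out. The share lower over all genes was then 4.93% to 7.62%, and 22.2% without wild-type replicate 2. Germline genes lower by the rule numbered 0 without wild-type replicate 1 or 3 or mutant replicate 1 or 2, 3 without mutant replicate 3 and 5 with the replicate block. Oocyte and eggshell genes numbered 3 without wild-type replicate 1 or 3 or mutant replicate 1, 2 without mutant replicate 2 and 5 without mutant replicate 3. Major sperm protein genes numbered 14 and 10 without wild-type replicates 1 and 3, 1 without mutant replicate 1 or 2 and 6 without mutant replicate 3. Yolk genes numbered 6 each time, and the 32 subunit genes 32. Summed germline CPM were 1717 to 2058 in the mutants and 2102 to 2728 in wild type, and those of oocyte and eggshell genes 199 to 253 and 365 to 772. Major sperm protein genes summed to 278 to 454 CPM in the mutants and 661 to 2482 in wild type, and yolk genes to 302 to 536 and 2754 to 5709. Of these markers 1 major sperm protein gene was at 0 in at least 1 library. Somatic markers were above 0 in all libraries. Summed CPM in the mutants and in wild type were 335 to 385 and 266 to 524 for epidermis, 2686 to 2999 and 2392 to 3018 for intestine, and 10907 to 13630 and 12652 to 12902 for body wall muscle. For neurons they were 358 to 413 and 273 to 333, and for pharynx 950 to 1244 and 765 to 1128. Among these markers 1 of 7 epidermal (nhr-25), 1 of 7 intestinal (ifb-2), 3 of 7 neuronal (rab-3, egl-3 and ric-4) and 1 of 5 pharyngeal (pha-4) genes were higher. Of the muscle genes 1 of 5 (myo-3) was lower. The shares over all genes tested were 9.96% higher and 13.4% lower.

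Wild-type replicate 2 had low levels of these reproductive markers but not of the subunits. Its median relative to the mean of wild type was -1.27 for major sperm protein genes, -0.70 for oocyte and eggshell genes, -0.71 for yolk genes and -0.25 for germline genes on the log2 scale. For the proteasome subunits it was 0.02, beside -0.02 and 0.00 in wild-type replicates 1 and 3. The mutants had subunit medians of -0.60, -0.71 and -0.60 in replicates 1 to 3. Wild-type replicate 2 was the highest wild-type library for 17 subunit genes and the lowest for 8. Without it, all 32 subunit genes were again lower, with a median of -0.63. So were 9 of the 12 germline genes, 30 of 30 major sperm protein genes and 10 of 10 oocyte and eggshell genes, beside 22.2% of all genes tested.

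In CPM, mutant replicate 2 was the lowest mutant library for 26 of the 32 genes. Among the mutants it also had the lowest median log2 CPM of the 4 reproductive lists. Its median for ribosomal protein genes was -0.08, against 0.13 and 0.15 in replicates 1 and 3. This order depended on the measure. In TPM summed over the 32 genes, mutant replicate 2 was the highest of the mutants, at 4558, against 4455 and 4495 in replicates 1 and 3. Without mutant replicate 2 all 32 genes were lower, with a median of -0.60.

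**Figure D5:**
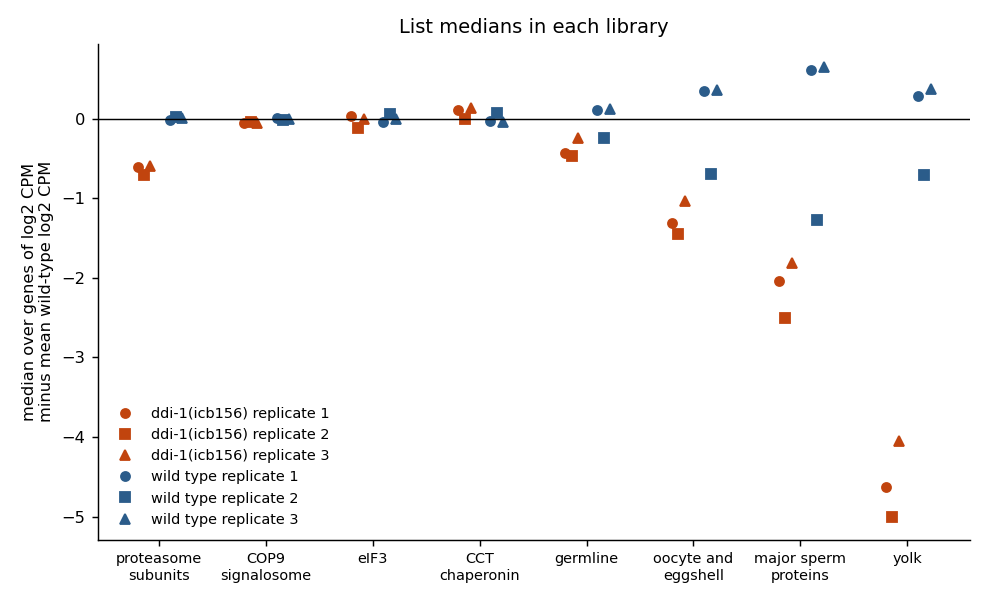
Median over the genes of each list of log2 CPM minus the mean log2 CPM of wild type (y axis), for ddi-1(icb156) (red, left) and wild-type (blue, right) libraries, with a symbol for each replicate. For the proteasome subunits wild-type replicate 2 (square) lies at 0.02 with the other wild-type libraries, while for oocyte and eggshell, major sperm protein and yolk genes it lies between the groups, and for germline genes it is level with mutant replicate 3 at -0.25.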

How the data were processed

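Transcript abundances were estimated by the authors with kallisto on the WormBase WS283 transcriptome, and tested with sleuth, in versions not given in the sources used here. Per library, the deposited estimated counts and effective lengths cover 37058 transcripts, without normalization. Of these, 30413 were joined to genes of WBcel235 (Ensembl) by transcript ID and 6633 by sequence name, and 12 were kept under their own names. Sums of estimated counts over the transcripts of a gene were rounded to whole numbers. No source used here says whether the libraries keep strand, so genes with overlapping exons are uncertain.

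R 4.3.3 and edgeR 4.0.16 were used: filterByExpr at its defaults, TMM (factors 0.969 to 1.07), and the robust quasi-likelihood test, two-sided, without covariates, with Benjamini-Hochberg adjustment. The fit had 4 residual degrees of freedom and a biological coefficient of variation of 0.202. TPM were computed from counts and effective lengths. Alternatives used DESeq2 1.42.0, limma 3.58.1 on log2(TPM + 1) or log2(TPM + 0.5), other scalings and filters (the stricter one at 5 CPM in 3 libraries), effective lengths, thinning, each replicate left out and a replicate block. Deviations of same-numbered samples from their group means correlated at 0.114, 0.309 and 0.185. Those of differently numbered samples correlated at -0.289 to 0.114, the highest for mutant replicate 3 with wild-type replicate 1. The rule used was a correlation above 0.1 in every same-numbered pair. By it the numbers were taken as pairs in the replicate block, but not in the main test. The pair of replicates 1 did not stand out from the differently numbered samples. The labels call the samples biological replicates but name no separate cultures, so p-values measure the spread between these samples only, which may be partly technical.

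The members and the gene lists were chosen with earlier results of these data known. All 32 subunits were named, as was each passing gene of the lists of proteasome-binding and SKN-1A processing genes, and at most 2 genes with the smallest p of the other pathway lists. rpl-42, the non-passing genes and the markers named were chosen after their values were seen. The script was tested on simulated data. Promoter and protein sequences were not analysed here.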

Additional observations from a re-analysis of the deposited data

How the results depend on the processing

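All 32 subunit genes were lower in each of the 17 alternatives and at an adjusted p below 0.05, and the 544 single values kept their call, at log2 fold changes of -0.91 to -0.43 with adjusted p of up to 0.0436 (pbs-1 and pbs-2 without mutant replicate 1). The replicate block, with same-numbered samples paired, gave 32 lower genes and a median of -0.62, and changed the call of 0 subunit genes. Leaving out a replicate gave 32 lower genes each time, with medians of -0.65 to -0.60. With library size alone the median of all subunits was -0.54. It was -0.49 for the alpha ring, -0.52 for the beta ring, -0.62 for the ATPases and -0.57 for the non-ATPases. Scaled by ribosomal protein genes these medians were -0.68, -0.64, -0.66, -0.77 and -0.71 in the same order. In that order, log2(TPM + 1), log2(TPM + 0.5) and the stricter filter each gave -0.58, -0.54, -0.56, -0.66 and -0.61. Relative to the median of all genes, the subunit median lay between -0.65 and -0.60 in every setting. The share of calls that were higher over all genes was 42.6%, and 53.2% with library size alone, 31.7% scaled by ribosomal protein genes, 52.7% on log2(TPM + 1) and 51.7% on log2(TPM + 0.5). Without a replicate the genes lower over all genes numbered 771 to 3474, against 2071 with all libraries. The cause of these differences was not tested. With 3 samples a group, small differences between subunits could not be resolved.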
